A study of Homo sapiens with 4 samples.

Results

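The combined effect of DLC1 and TGF-beta on messenger RNA was described in SCP2 cells by setting the array of cells labelled as overexpressing DLC1 and treated with TGF-beta against the array of untreated cells with the vector control. SCP2 is a bone-seeking subline of the human breast cancer line MDA-MB-231 that was grown from 1 cell, and all groups share that background. These are 2 of the 4 arrays of the series, and the other 2, vector cells with TGF-beta and DLC1-labelled cells without it, were used to split the combined change into its TGF-beta and DLC1 parts. Each group holds 1 array, so that no difference has a replicate check and only sizes are given. For TGF-beta, no dose or time is stated in the labels, nor is the DLC1 construct described. All probe sets named with exactly 1 gene symbol entered, which gave 19775 genes, and 13137 of them reached an intensity of 0.38, the median of all values, on at least 1 array and were kept.

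DLC1 is a tumour suppressor gene whose product stimulates GTP hydrolysis by small GTPases. TGF-beta is a cytokine released from bone matrix during resorption. It acts through receptor kinases and SMAD transcription factors, and its known targets include its own feedback inhibitors, collagens, and secreted factors that act on bone cells. The title of the series concerns suppression of breast cancer bone metastasis by DLC1, and the comparison addressed where the cells end up when both are applied.

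The DLC1 transcript did not settle the labels. Of its probe sets the brightest gave 1.77 for untreated vector cells, 2.51 for vector cells with TGF-beta, 3.38 for DLC1-labelled cells and 3.64 for DLC1-labelled cells with TGF-beta, a combined change of 1.04 on the log2 scale. The other DLC1 probe set of like brightness read 1.79, 2.41, 1.44 and 1.69 in the same order, a combined change of -0.08, and a dim set gave -0.45. Both thus go against the brightest set. All directions below therefore refer to the arrays as labelled. Markers of the MDA-MB-231 family were bright, with VIM between 160.3 and 205.05, while the oestrogen receptor gene ESR1 stayed between 0.39 and 0.46 and CDH1, the E-cadherin gene, between 0.12 and 0.31. EPCAM, an epithelial adhesion gene, was measured at 5.76 to 7.45. Of 9 luminal markers, 3 lay under 0.38 on every array, while KRT18 read 56.83 to 65.09 and KRT19 11.21 to 16.56. KRT8 read 6.25 to 8.06, GATA3 3.0 to 4.59 and ERBB2 1.82 to 2.29. Of 7 leukocyte markers, 3 lay under 0.38 on every array, PTPRC among them, and the summed level of the 7 ran from 2.68 to 3.76. The brightest of them, CD14, read 1.08 to 1.67. Of 10 endothelial and stromal markers, 6 lay under 0.38 on every array, CDH5 among them, and their sum ran from 3.34 to 3.93. Beta-actin controls, read for RNA quality, had a wide 3' to 5' gap on every array. On the log2 scale it was 3.26 in the untreated vector array and 2.83 in vector cells with TGF-beta. In DLC1-labelled cells it was 3.11 without and 3.03 with TGF-beta. From the untreated vector array to the DLC1-labelled array with TGF-beta it changed by -0.24. The GAPDH gap was 0.35 to 0.39 and changed by -0.002 between the same arrays. All 3 controls for 18S ribosomal RNA were higher in the DLC1-labelled array with TGF-beta than in the untreated vector array, by 0.45 to 0.74. They read 40.36 to 53.63 in the untreated vector array and 50.63 to 70.38 in vector cells with TGF-beta. In DLC1-labelled cells they read 64.46 to 96.03 without and 62.34 to 89.66 with TGF-beta. Their part in the results was not tested.

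With DLC1 and TGF-beta together, 257 genes lay at least 2-fold above the untreated vector array, 1.96% of the kept genes, and 359 lay at least 2-fold below it, 2.73%, which made 616 genes (4.69%) in all. The median over all kept genes was -0.035 on the log2 scale. The combined change equals the mean TGF-beta difference, taken over vector and DLC1-labelled cells, plus the mean DLC1 difference, taken without and with TGF-beta. A gene was assigned to TGF-beta or to DLC1 if that mean reached 0.5 on the log2 scale and both of its component differences had the same sign. Of the 257 higher genes, 165 (64.2%) moved this way with DLC1 alone, 47 (18.3%) with TGF-beta alone, and 33 (12.8%) with both. The remaining 12 were opposed, 10 of them higher with TGF-beta and lower with DLC1 and 2 the reverse. Of the 359 lower genes, 243 (67.7%) moved with DLC1 alone, 32 (8.91%) with TGF-beta alone, 78 (21.7%) with both, and 5 with opposed differences. The last, GIMAP2, read 0.38 in the vector array and 0.13 in each of the others, so that the size of its change is uncertain.

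The balance of higher and lower genes depends on the centring of the arrays. Centring each array on the median level of 13 housekeeping genes moved the median of all genes by 0.37 and gave 783 genes higher and 140 lower. That level was the level of ACTB in the vector array and of TFRC in the other 3. Centring on the median difference of the same genes moved the median of all genes by 0.06 and gave 302 higher and 301 lower.

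**Figure D1:**
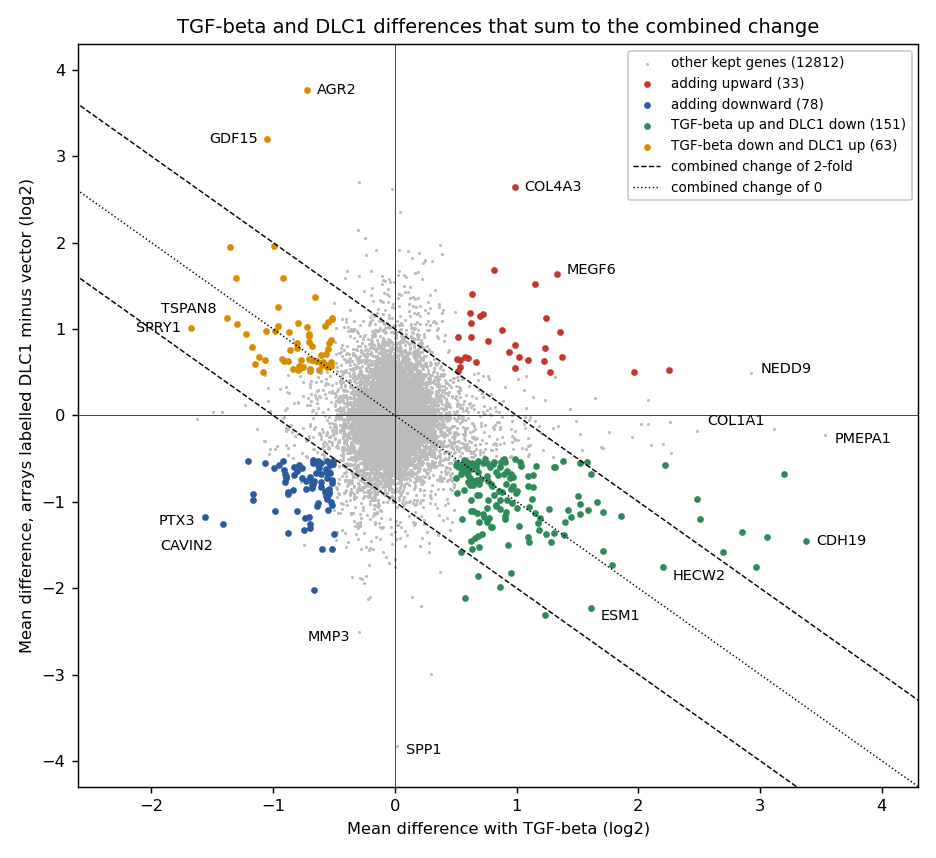
Each point is 1 of the 13137 kept genes, with its mean difference with TGF-beta on the x axis and its mean difference between DLC1-labelled and vector arrays on the y axis, both log2; their sum is the combined change, which is 0 on the dotted line and 2-fold on the dashed lines. The 151 genes that were higher with TGF-beta and lower with DLC1 lie at the lower right around the dotted line. By the rule of their classes, the 33 and 78 genes whose differences added lie at the upper right and lower left beyond the dashed lines.

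Genes that TGF-beta moved were next split by their DLC1 difference. Of 417 genes with a mean TGF-beta difference of 0.5 or more (3.17% of the kept genes), 151 were lower with DLC1, which is 36.2% of them and 11.9% of all 1268 genes that were lower with DLC1. Another 33 were higher with DLC1, which is 7.91% of the 417 and 3.39% of the 973 genes higher with DLC1. Over all kept genes 9.65% were lower and 7.41% higher with DLC1. Of 285 genes that were lower with TGF-beta (2.17%), 78 were also lower with DLC1 (27.4% of them, 6.15% of the genes lower with DLC1) and 63 were higher (22.1%, and 6.47% of the genes higher with DLC1). The balance depends on the processing. With centring on the housekeeping level, 140 genes raised by TGF-beta were lower and 115 higher with DLC1, and of those lowered by TGF-beta 21 were lower and 49 higher. With centring on the median housekeeping difference the latter were 70 and 71, and with a pseudocount of 0.5 they were 27 and 35. The means for TGF-beta and DLC1 are made from the same 4 arrays, and these counts carry no test.

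The genes furthest above the untreated vector array included matrix and signalling genes raised by TGF-beta and AGR2, which was raised in the DLC1-labelled cells. NEDD9, a scaffold protein of focal adhesions, read 0.47 in the vector array, 5.09 in vector cells with TGF-beta, 0.94 in DLC1-labelled cells and 5.01 in DLC1-labelled cells with TGF-beta, a combined change of 3.41. Both arrays with TGF-beta were high and both without were low. The other kept NEDD9 set gave a smaller combined change of 1.68. PMEPA1, which restrains SMAD signalling, read 8.19, 89.76, 6.63 and 80.96 in that order, a 9.89-fold combined change. That is 3.31 on the log2 scale, and its 2 other kept sets gave 3.17 and 4.28. COL1A1, a chain of collagen I, read 0.94, 9.70, 1.0 and 7.27, a combined change of 2.95 in its brightest probe set, while its 3 other kept sets gave 1.13, 0.45 and -0.29. AGR2, which assists disulfide formation in secretory proteins, reached its place by another path, with 2.94, 1.75, 39.16 and 24.24. It was high in both DLC1-labelled arrays and lower with TGF-beta in each kind of cell. The combined change of AGR2 was 3.04 in this set and 1.95 in its other kept set. LBH, CTHRC1, which encodes a secreted matrix-associated protein, COL4A1, HTN1, MEGF6 and SLITRK6 completed the 10 highest genes, ranked with values under 0.38 raised to it. Their combined changes ran from 2.47 for CTHRC1 to 2.97 for MEGF6. HTN1 read 0.34 in the vector array, so that the size of its change is uncertain. Before values were raised, COL4A3 and COL4A4, described below, had changes of 3.63 and 2.67.

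The 10 lowest genes, ranked in the same way, were lower with DLC1 alone or with both treatments. MMP3, the stromelysin gene, read 18.98 in the vector array, 13.10 in vector cells with TGF-beta, 2.81 in DLC1-labelled cells and 2.72 in DLC1-labelled cells with TGF-beta, a combined change of -2.80. SPP1, the osteopontin gene, read 1.96, 2.43, 0.17 and 0.14, so that both DLC1-labelled values lay under the filter level and the size of its change of -3.81 is uncertain. With values under 0.38 raised to it, the change was -2.37. CCL2, a monocyte-attracting chemokine gene, read 37.33, 33.23, 10.33 and 8.14, and KIF11, a mitotic motor gene, 14.54, 11.15, 2.99 and 2.92. In these 4 genes both vector arrays were high and both DLC1-labelled arrays low, whatever the TGF-beta state. The kinase gene NRK at -2.69 and CALB1, a calcium-binding protein gene, at -2.35 had the same pattern, whereas PTX3, CCNA1, CAVIN2 and SHISA2, the other 4 of the 10 lowest, were lowered by both.

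The 33 genes that TGF-beta and DLC1 both raised made up 0.251% of the kept genes, and their median combined change was 1.80. ABCA1, which exports cholesterol from cells, read 3.0 in the vector array, 9.71 with TGF-beta, 8.97 in DLC1-labelled cells and 15.40 with both. The single-treatment arrays lay close together, and the double one is highest by the rule of the class. The next brightest probe set gave a combined change of 2.58 beside 2.36 in the set used. YPEL2 read 2.08, 6.57, 5.03 and 10.41 and RAB31, a membrane traffic GTPase gene, 8.03, 16.46, 17.66 and 24.88. TNFRSF11B, which encodes osteoprotegerin, the decoy receptor that restrains osteoclast formation, read 3.55, 7.38, 6.54 and 12.37, a 3.48-fold combined change. MEGF6, with 0.44, 1.28, 1.58 and 3.45, had the largest smaller share of the class, 1.33 from TGF-beta and 1.64 from DLC1. Its other kept set gave 0.45 in all. SLITRK6 and SOX4, a transcription factor gene, rose by 2.49 and 2.01 in all, and SOX4 read 6.84 in the vector array, 25.16 with TGF-beta, 18.34 in DLC1-labelled cells and 27.60 with both. The other kept SOX4 sets gave 0.39 to 2.0.

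**Figure D2:**
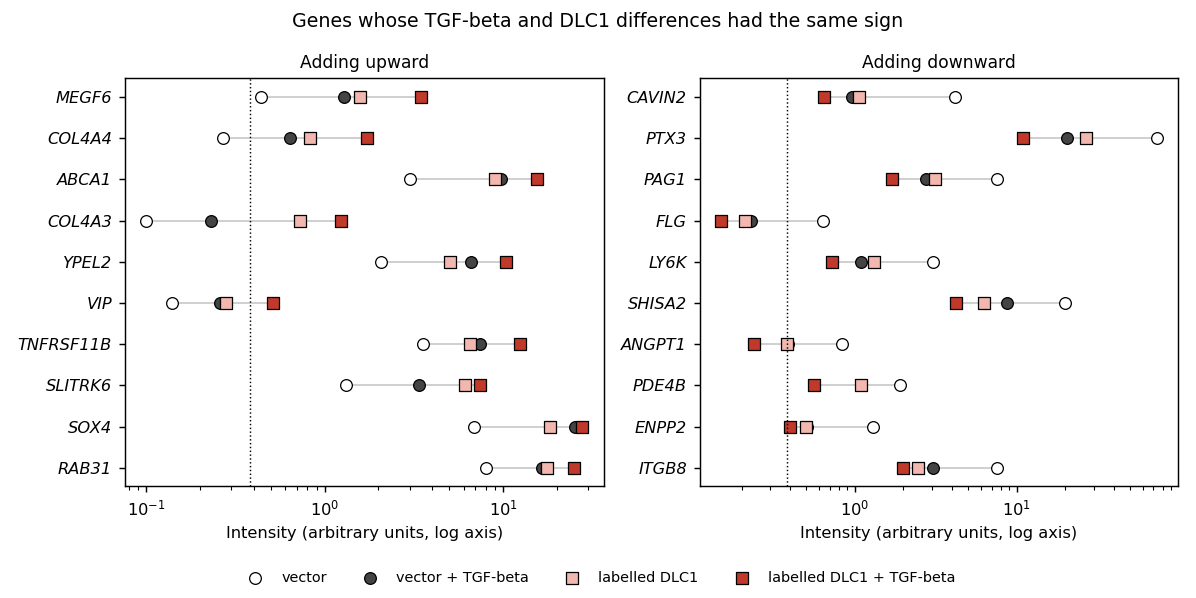
Intensities (x axis, arbitrary units, log scale) of the 10 genes with the largest smaller mean difference among those raised by both (left) and lowered by both (right); circles are vector arrays and squares DLC1-labelled arrays, the dark circle and the red square are those with TGF-beta, and the dotted line is the filter level of 0.38. By the rule of these classes the array with both is the highest on the left, for example 15.40 for ABCA1. On the right it is the lowest, for example 11 for PTX3.

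COL4A3 and COL4A4, which encode basement membrane collagen chains, both met the rule of this class. COL4A3 read 0.10 in the vector array, 0.23 with TGF-beta, 0.73 in DLC1-labelled cells and 1.24 with both, and COL4A4 read 0.27, 0.64, 0.83 and 1.72. The vector values lie under the filter level, so that the sizes of 3.63 and 2.67 are uncertain, and with values under 0.38 raised to it they were 1.71 and 2.18. COL4A3 then left the class, with a mean TGF-beta difference of 0.38, and COL4A4 did not. COL4A1 and COL4A2, another pair of the same family, followed TGF-beta instead. COL4A1 read 3.98, 33.66, 2.29 and 22.73 and COL4A2 read 4.66, 23.49, 3.62 and 16.66, with mean TGF-beta differences of 3.20 and 2.27 and mean DLC1 differences of -0.68 and -0.43. Both pairs are encoded head to head. The promoter windows of COL4A1 and COL4A2 on chromosome 13 share 226 bases, and those of COL4A3 (chr2:227164374-227164673, plus strand) and COL4A4 (chr2:227164156-227164455, minus strand), from RefSeq on GRCh38.p14 and running from 250 bases before to 50 after each start, share 82. These 2 windows are printed 5′ to 3′ because both genes met the rule of this class and their windows share bases. Capitals mark the shared bases, which appear as reverse complements of each other.
COL4A3: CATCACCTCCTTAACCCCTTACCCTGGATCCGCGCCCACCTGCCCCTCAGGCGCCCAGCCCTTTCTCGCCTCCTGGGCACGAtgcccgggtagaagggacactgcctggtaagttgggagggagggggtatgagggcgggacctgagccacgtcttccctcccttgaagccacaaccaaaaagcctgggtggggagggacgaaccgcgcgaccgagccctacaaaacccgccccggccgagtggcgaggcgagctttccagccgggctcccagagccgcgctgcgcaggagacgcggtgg
COL4A4: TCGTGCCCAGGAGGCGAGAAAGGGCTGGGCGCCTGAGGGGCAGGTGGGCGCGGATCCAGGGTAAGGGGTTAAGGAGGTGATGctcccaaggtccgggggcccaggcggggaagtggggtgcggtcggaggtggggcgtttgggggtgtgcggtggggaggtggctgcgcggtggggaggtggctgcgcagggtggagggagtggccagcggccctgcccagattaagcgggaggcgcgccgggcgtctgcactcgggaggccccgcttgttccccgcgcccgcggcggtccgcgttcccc

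Lowering by both TGF-beta and DLC1 was found for 78 genes, 0.594% of the kept genes, with a median combined change of -1.49. PTX3, a pentraxin gene of innate immunity, read 73.28 in the vector array, 20.41 with TGF-beta, 26.70 in DLC1-labelled cells and 11 with both, a 6.66-fold lower level. PAG1, a membrane adaptor gene of Src-family kinase control, read 7.56, 2.77, 3.14 and 1.71. SHISA2 read 19.91, 8.75, 6.28 and 4.23. By the rule of this class, the untreated vector array is the highest and the array with both the lowest. CAVIN2, which encodes a coat protein of caveolae, read 4.15, 0.96, 1.07 and 0.65, so that either treatment alone came near the level of both together, and its other kept set gave -0.82 in all. ITGB8, a chain of an integrin that activates latent TGF-beta, had the same shape with 7.53, 3.03, 2.45 and 2.0. ENPP2, the gene of the lysophospholipase autotaxin, PDE4B, LY6K, ANGPT1 and FLG made up the rest of the 10, of which FLG read 0.64 at most. With values under 0.38 raised to it, FLG and ANGPT1 left the class.

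Several inflammatory genes belonged to this class. Of 20 kept NF-kappaB and chemokine genes, 8 lay at least 2-fold below the untreated vector array and 2 above, against 2.73% and 1.96% of all kept genes, with a median of -0.72 that became -0.35 with arrays centred on the housekeeping level. Of the 20, 5 were lowered by both treatments, beside 0.594% of all kept genes, namely PTX3, IL1B, TNFAIP3, CXCL1 and CXCL2. IL1B read 6.23, 3.18, 3.47 and 1.95 and CXCL1 41.22, 27.12, 30.36 and 15.95 in the order vector, vector with TGF-beta, DLC1-labelled, DLC1-labelled with TGF-beta. TNFAIP3, a feedback inhibitor of NF-kappaB, fell by 1.39 on the log2 scale. CXCL8 fell by 1.18, with 0.83 of it from TGF-beta, and its other set gave -0.89. The 2 that rose, the iron-carrier gene LCN2 and the complement gene C3, read 1.18 and 1.95 in the vector array and 6.28 and 7.04 with both, and followed DLC1. The NF-kappaB subunit genes NFKB1 and NFKB2 gave -0.28 and 0.04.

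In other genes the differences opposed each other. TGF-beta raised and DLC1 lowered 151 genes, 1.15% of the kept genes, of which 136 ended within 2-fold of the untreated vector array, 10 above and 5 below, and the combined change was under 0.5 in size for 114. NRP2, a semaphorin and VEGF co-receptor gene, read 1.80 in the vector array, 6.27 with TGF-beta, 0.55 in DLC1-labelled cells and 1.87 with both. It thus returned to 0.06 (log2) of its untreated level from steps of 1.78 and -1.73. Its 7 other kept probe sets gave mean TGF-beta differences of 0.44 to 1.10 and mean DLC1 differences of -0.63 to -1.72. Their combined changes ran from -0.62 to 0.0. EDN1, the endothelin-1 gene, read 9.23, 31.99, 4.68 and 9.28, and its next brightest set read 8.90, 28.65, 4.13 and 8.04. In the brightest sets of both genes the untreated vector array and the array with both nearly coincided. By the class rule these 2 arrays lie between that with TGF-beta alone and that with DLC1 alone. The other kept EDN1 sets gave combined changes of -0.485 and -0.147. SOX5, with 0.61 and 0.67 at the ends, and the ubiquitin ligase gene HECW2, with 2.10 and 2.85, were alike. The other kept SOX5 set gave -0.36 in all.

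In other genes of this class TGF-beta outweighed DLC1. CDH19, a cadherin gene, read 1.07, 9.43, 0.33 and 4.04, a combined change of 1.92 from a TGF-beta part of 3.38 and a DLC1 part of -1.46. The kinase anchor gene AKAP12, ODAPH, the metalloprotease gene ADAM19 and the adhesion gene CNTN1 ended 1.5, 1.65, 1.21 and 1.11 above the untreated vector array. The DLC1-labelled values of ADAM19, CNTN1, ODAPH and CDH19 without TGF-beta, 0.15, 0.36, 0.29 and 0.33, lie under the filter level, so that the sizes of both parts are uncertain. The other kept sets gave 0.27 for ADAM19, 0.49 and 0.64 for CNTN1, 0.89 and 1.06 for CDH19 and 0.52 to 2.07 for AKAP12. ESM1, which encodes the proteoglycan endocan, went the other way, with 0.92, 4.0, 0.28 and 0.60.

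Of 13 kept bone metastasis genes 4 were raised by TGF-beta and lowered by DLC1, as were 4 of 18 bone-acting secreted factors, beside 1.15% of all kept genes. IL11, an osteoclast-promoting cytokine gene, read 4.50 in the vector array, 9.28 with TGF-beta, 2.21 in DLC1-labelled cells and 4.28 with both, a combined change of -0.07. JAG1, a Notch ligand gene, read 60.54, 88.71, 33.20 and 57.57, also -0.07. BMP2 read 1.44, 4.19, 0.86 and 1.46, and the chemokine receptor gene CXCR4 10.87, 21.31, 6.88 and 13.21, with combined changes of 0.02 and 0.28. By the rule of the class, the array with TGF-beta alone is the highest in these 4 genes and the DLC1-labelled array without it the lowest. Among other genes of the class, PLAU, the urokinase gene, at 0.65, CCN2, which encodes connective tissue growth factor, at 0.48, the laminin gene LAMB1 at -0.51 and SNAI2, a repressor of epithelial genes, at -0.48 also stayed within 2-fold.

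The reverse opposition, lower with TGF-beta and higher with DLC1, held for 63 genes (0.48% of the kept genes), 61 of them within 2-fold at the end. CSF1, the macrophage colony-stimulating factor gene, read 5.92 in the vector array, 2.32 with TGF-beta, 10.82 in DLC1-labelled cells and 7.28 with both. Its 2 dimmer kept sets gave the same signs for both parts, with TGF-beta at -0.23 and -0.27 and DLC1 at 0.41 and 0.27. NR3C2, the mineralocorticoid receptor gene, read 8.83, 3.62, 14.08 and 8.78, and the tetraspanin gene TSPAN8 6.86, 2.15, 12.27 and 5.76. By the rule of this class, the array with TGF-beta alone is the lowest and the array with DLC1 alone the highest. SPRY1, an inhibitor of growth factor signalling, read 3.61, 0.66, 4.26 and 2.28. INHBB, which encodes an activin chain, with 0.68 and 1.03 at the ends, SMIM31, MAL2, SHOC1 and MBP also ended within 2-fold. The 2 that did not were AGR2 and GDF15, a stress-responsive cytokine related to TGF-beta. GDF15 read 1.59, 0.78, 14.78 and 7.06, a 4.44-fold combined change in which TGF-beta took back 1.05 of a DLC1 part of 3.20 on the log2 scale.

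**Figure D3:**
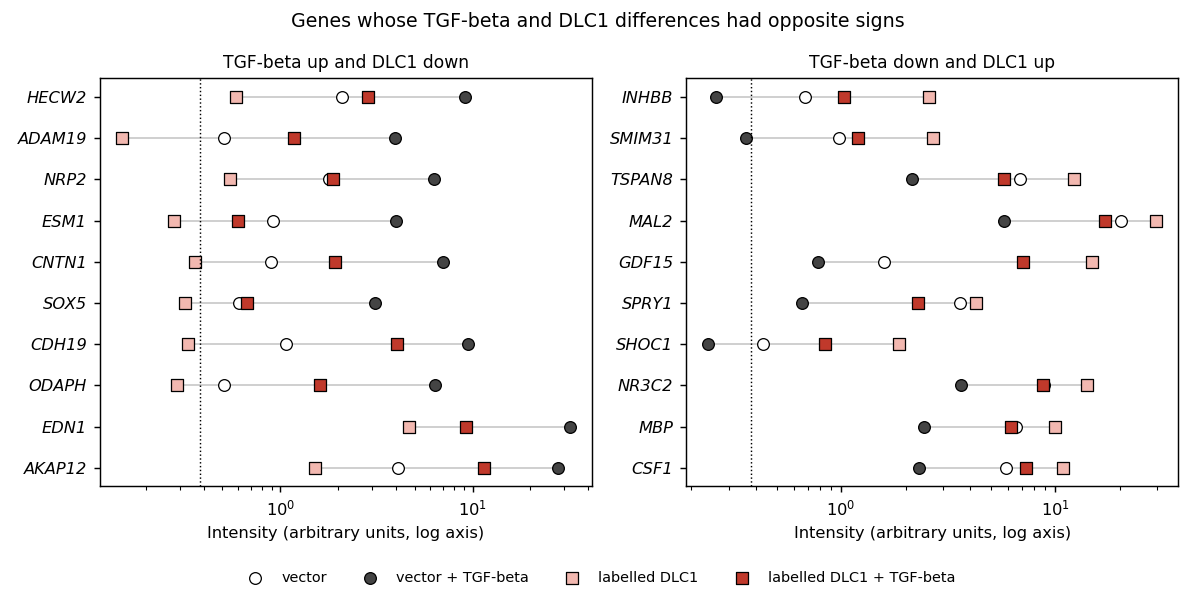
Intensities (x axis, arbitrary units, log scale) of 10 genes raised by TGF-beta and lowered by DLC1 (left) and 10 with the opposite signs (right); symbols stand for the 4 arrays and the dotted line is the filter level of 0.38. By the sign rule of these classes, 2 arrays must lie between TGF-beta alone and DLC1 alone. These are the vector array (open circle) and the array with both treatments (red square). They nearly coincide for NRP2 (1.80 and 1.87) and NR3C2 (8.83 and 8.78) in their brightest probe sets. The other kept NRP2 sets gave combined changes of -0.62 to 0.0.

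The combined change was next set against the plain sum of the single differences from the untreated vector array. The departure from that sum was under 0.5 on the log2 scale for 471 of the 616 genes past 2-fold and reached 1 for 27, beside 0.365% of all kept genes. Where both treatments acted in 1 direction, the combined change was mostly smaller than the sum: the departure was below 0 for 25 of the 33 genes raised by both, with a median of -0.22, and above 0 for 64 of the 78 lowered by both, with a median of 0.38. Over all kept genes the median departure was 0.016. Of the 33 genes 27 had no value under 0.38 on any array, as did 50 of the 78. For the rest the sizes of the departures are uncertain. The untreated vector array enters both single differences, and its part in these counts was not tested. Among the largest departures below the sum were those of SOX4 at -1.29, CDS1, a lipid synthesis gene, at -1.23, ODAPH at -1.18 and MN1 at -1.13. The largest above it were those of NDP and EREG, the growth factor gene of epiregulin, at 1.75 each, GIMAP2 at 1.55, CAVIN2 at 1.39 and SHISA3 at 1.35. NDP, EREG, GIMAP2, SHISA3, ODAPH and MN1 have values under the filter level, and the sizes of their departures are uncertain.

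Of 31 kept TGF-beta induced targets, 14 rose at least 2-fold, none fell and 25 lay above 0, beside 1.96% higher, 2.73% lower and 45.1% above 0 of all kept genes, with a median combined change of 0.80 beside -0.035 over all kept genes. The list's median TGF-beta part was 1.06 and its DLC1 part -0.16. SMAD7, an inhibitory SMAD gene, read 1.0, 4.92, 0.85 and 3.65. TGFBI, a matrix protein gene, read 7.15, 35.43, 5.12 and 22.39, and SKIL, a SMAD corepressor gene, rose by 1.14. BHLHE40, a transcriptional repressor gene, rose by 1.76, with 5.85, 21.03, 11.50 and 19.79. Of the 31, 14 were raised by TGF-beta alone, 8 were opposed by DLC1 and 2 were raised by both. Over all 13137 kept genes these classes held 233, 151 and 33 genes. Among 6 kept TGF-beta repressed targets, ID1, an inhibitor of differentiation factors, fell by 1.09, which came from a DLC1 part of -1.35 against a TGF-beta part of 0.26, and MYC gave -0.12.

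Of 27 kept TGF-beta pathway components, 2 rose and 2 fell, beside 1.96% and 2.73% of all kept genes. Besides GDF15, FSTL3, which encodes a follistatin-like activin inhibitor, rose by 1.51. TGFBR3, the co-receptor betaglycan, read 11.81, 4.43, 7.53 and 4.57 and SMAD3, a receptor-activated SMAD, 7.33, 4.1, 4.97 and 3.53. Both fell past 2-fold, by 1.37 and 1.05, and the other kept sets of SMAD3 gave -0.63 and -0.93. TGFBR1 and TGFBR2, the signalling receptors, gave -0.20 and -0.09, and TGFB1 gave 0.80 in its brightest set and -0.10 in the other. Against the same shares, 8 of 27 collagen and matrix genes rose and none fell, with a median of 0.19 that became 0.57 with arrays centred on the housekeeping level. COL6A3 read 0.94, 5.75, 0.91 and 4.66, COL7A1 rose by 1.92 with 0.74 in its other set, COL5A1 by 1.85 and FN1, the fibronectin gene, by 1.35. Of 16 integrin and laminin chains only ITGB8 passed 2-fold, beside 4.69% of all kept genes. Of 22 matrix proteases and inhibitors ADAM19 rose, and MMP3 and TIMP3 fell, against 1.96% and 2.73% of all kept genes. The other TIMP3 sets gave -0.79 to -1.17.

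Chaperones of the endoplasmic reticulum formed the group with the highest median combined change of those examined, nearly all of it in the DLC1 part. Of 21 kept endoplasmic reticulum chaperone genes 15 rose at least 2-fold, none fell and all 21 lay above 0, beside 1.96%, 2.73% and 45.1% of all kept genes. The median was 1.30, and the separate medians of the DLC1 and TGF-beta parts were 1.16 and 0.12. HSPA5, the master chaperone BiP, read 71.16, 92.13, 207.07 and 207.73. PDIA4, a disulfide isomerase gene, read 12.31, 15.76, 45.84 and 50.29 and SDF2L1 6.69, 7.32, 26.99 and 25.83. In each the 2 DLC1-labelled arrays lay close together, far above both vector arrays. HSP90B1, DNAJB9 and CRELD2 rose by 1.85, 1.80 and 1.70, and SEC61B, CANX, PDIA6, CALR, DNAJC3 and CRELD1 stayed within 2-fold in their brightest sets. Other kept sets passed it for DNAJC3 (1.56 to 2.03), CANX (1.10 to 1.15), PDIA6 (up to 1.36) and SEC61B (1.36), while those of CALR gave 1.58 and -0.28. Of 22 kept genes of the ATF4 amino acid response, 6 rose and none fell, against the same shares, with a median of 0.66 that became 1.03 with arrays centred on the housekeeping level. TRIB3, a pseudokinase gene, read 9.07, 10.85, 37.70 and 36.74, DDIT4, an inhibitor of mTOR signalling, 13.20, 12.71, 39.71 and 43.10, and ASNS, asparagine synthetase, 23.56, 21.72, 45.13 and 47.97. The 18S controls were also above the untreated vector array in both DLC1-labelled arrays. They were above it by less in vector cells with TGF-beta.

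The endoplasmic reticulum stress element, searched on both strands as CCAAT and CCACG with any 9 bases between them, was present in the promoter windows of 6 of 20 chaperone genes with a RefSeq window (30.0%), against 0.0806% of all 27305 windows and 0.123% of the 10596 windows of kept genes. The 6 were HSPA5, HSP90B1, CRELD2, XBP1, CALR and CANX, with combined changes of 1.55, 1.85, 1.70, 1.10, 0.79 and 0.56. PDIA4 and SDF2L1, which rose more, had no match to these letters in this window. The ATF4 response site, searched as TGATGNAAN, was present in 6 of 19 windows of the ATF4 list (31.6%) and in 1.79% of windows of kept genes. These shares come from the sequences of chosen lists and do not use the size of any change. Whether the sites took part in the changes was not tested. The windows below are shown because they hold the matches, in capitals, in genes that rose. HSPA5 lies at chr9:125241294-125241593 on the minus strand, HSP90B1 at chr12:103930160-103930459 and CRELD2 at chr22:49918384-49918683 on the plus strand, and ASNS, with the ATF4 site, at chr7:97872359-97872658 on the minus strand (GRCh38.p14).
HSPA5: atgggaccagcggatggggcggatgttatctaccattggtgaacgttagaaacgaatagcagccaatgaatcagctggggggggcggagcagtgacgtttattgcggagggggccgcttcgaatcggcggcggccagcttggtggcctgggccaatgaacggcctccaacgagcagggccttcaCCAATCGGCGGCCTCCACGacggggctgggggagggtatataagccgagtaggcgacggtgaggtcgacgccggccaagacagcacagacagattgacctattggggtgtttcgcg
HSP90B1: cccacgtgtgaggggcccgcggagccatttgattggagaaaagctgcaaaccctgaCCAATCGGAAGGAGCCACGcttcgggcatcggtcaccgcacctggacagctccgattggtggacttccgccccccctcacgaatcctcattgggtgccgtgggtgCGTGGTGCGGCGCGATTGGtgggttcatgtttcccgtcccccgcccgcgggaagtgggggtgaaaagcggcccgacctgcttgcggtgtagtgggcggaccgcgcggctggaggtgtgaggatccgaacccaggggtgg
CRELD2: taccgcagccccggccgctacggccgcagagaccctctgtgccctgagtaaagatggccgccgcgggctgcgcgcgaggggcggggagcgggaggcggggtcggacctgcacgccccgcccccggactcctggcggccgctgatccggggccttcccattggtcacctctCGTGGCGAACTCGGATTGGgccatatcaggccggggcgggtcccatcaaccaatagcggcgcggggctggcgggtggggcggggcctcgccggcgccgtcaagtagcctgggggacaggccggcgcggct
ASNS: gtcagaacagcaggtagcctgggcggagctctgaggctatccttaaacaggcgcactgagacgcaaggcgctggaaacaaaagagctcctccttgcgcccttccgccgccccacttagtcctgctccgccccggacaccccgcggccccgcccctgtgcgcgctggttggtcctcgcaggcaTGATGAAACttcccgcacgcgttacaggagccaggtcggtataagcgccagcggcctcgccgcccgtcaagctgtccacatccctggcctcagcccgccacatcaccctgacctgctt

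Mitosis genes were the group with the lowest median combined change of those examined. Of 30 kept members 14 fell at least 2-fold, none rose and 28 lay below 0, beside 2.73%, 1.96% and 53.6% of all kept genes. The median was -0.98, and it became -0.60 with arrays centred on the housekeeping level. The separate medians of the DLC1 and TGF-beta parts were -0.78 and -0.21. DLGAP5, a spindle protein gene, read 33.22, 24.23, 7.88 and 7.45, CENPE, a kinetochore motor gene, 16.38, 13.39, 4.68 and 4.24, and TOP2A, a topoisomerase gene, 40.46, 31.76, 13.27 and 12.91. Both DLC1-labelled arrays were low in these genes, and the vector array with TGF-beta lay below the untreated one. BUB1 and BUB1B of the spindle checkpoint fell by 1.74 and 1.62. The master mitotic kinase gene CDK1 gave -0.55 and CCNB1 -0.72. The proliferation marker MKI67 gave 0.41 in its brightest set and -1.12, -0.02 and -1.07 in its others. In a bulk culture, fewer dividing cells and less RNA per cell cannot be told apart. DNA replication genes moved less: 5 of 22 fell, none rose, and the median was -0.65, which became -0.28 with that centring. POLE2, a polymerase subunit gene, read 17.11, 12.52, 5.93 and 4.73, and RRM2, a ribonucleotide reductase subunit gene, 76.40, 56.07, 40.67 and 28.53.

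The cell cycle homology core, searched as TTTGAA on both strands, was present in 19 of 26 mitosis gene windows (73.1%), against 9.9% of windows of kept genes and 15.4% of all windows. This share comes from the sequences of a chosen list and does not use the size of any change. Whether the site took part in the lower levels was not tested. Windows of the 2 lowest mitosis genes are shown with matches in capitals: KIF11 at chr10:92592880-92593179 on the plus strand and DLGAP5 at chr14:55191536-55191835 on the minus strand (GRCh38.p14).
KIF11: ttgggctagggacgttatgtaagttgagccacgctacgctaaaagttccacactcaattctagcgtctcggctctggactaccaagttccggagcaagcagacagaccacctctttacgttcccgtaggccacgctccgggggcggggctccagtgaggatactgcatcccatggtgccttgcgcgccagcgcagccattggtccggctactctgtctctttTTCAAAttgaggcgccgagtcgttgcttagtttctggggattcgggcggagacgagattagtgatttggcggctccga
DLGAP5: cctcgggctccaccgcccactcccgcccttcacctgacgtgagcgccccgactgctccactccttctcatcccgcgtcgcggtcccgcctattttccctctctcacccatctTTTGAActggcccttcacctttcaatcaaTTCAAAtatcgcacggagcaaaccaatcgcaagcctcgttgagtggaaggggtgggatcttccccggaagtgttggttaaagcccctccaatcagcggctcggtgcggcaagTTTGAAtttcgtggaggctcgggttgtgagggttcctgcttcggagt

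The lists tied to bone moved in both directions. Of 18 kept bone-acting secreted factors, 5 fell and 2 rose, beside 2.73% and 1.96% of all kept genes, with a median of -0.38 that became -0.01 with arrays centred on the housekeeping level. SPP1, CCL2, EREG, CXCL8 and HBEGF, an EGF-family ligand gene at -1.21, fell, and TNFRSF11B and GDF15 rose. Against the same shares, 2 of 13 kept bone metastasis genes fell, SPP1 and the prostaglandin receptor gene PTGER4 at -1.30, and SOX4 and OPN3 rose. Their median was -0.30, which became 0.07 with that centring. SPP1 and IL11 are in both lists. MMP1, the interstitial collagenase gene, read 243.54, 234.54, 161.98 and 166.93, a combined change of -0.55, and the protease gene ADAMTS1 gave -0.95.

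The 19 kept SRF and MRTF targets, among them actin genes, had a median of 0.07, which became 0.45 with arrays centred on the housekeeping level. The separate medians of their TGF-beta and DLC1 parts were 0.29 and -0.15. The tropomyosin gene TPM1 read 31.61, 79.25, 25.83 and 55.62, a combined change of 0.82. Of the 19, 2 passed 2-fold, beside 4.69% of all kept genes. They were the immediate early genes EGR1 at -1.30, with -0.92 and -0.46 in its other sets, and FOS at -1.20. None of 14 YAP and TAZ targets passed 2-fold, beside 4.69% of all kept genes. Their median was -0.15, which became 0.23 with arrays centred on the housekeeping level. Housekeeping genes had a median of -0.06, and none of 13 passed 2-fold.

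**Figure D4:**
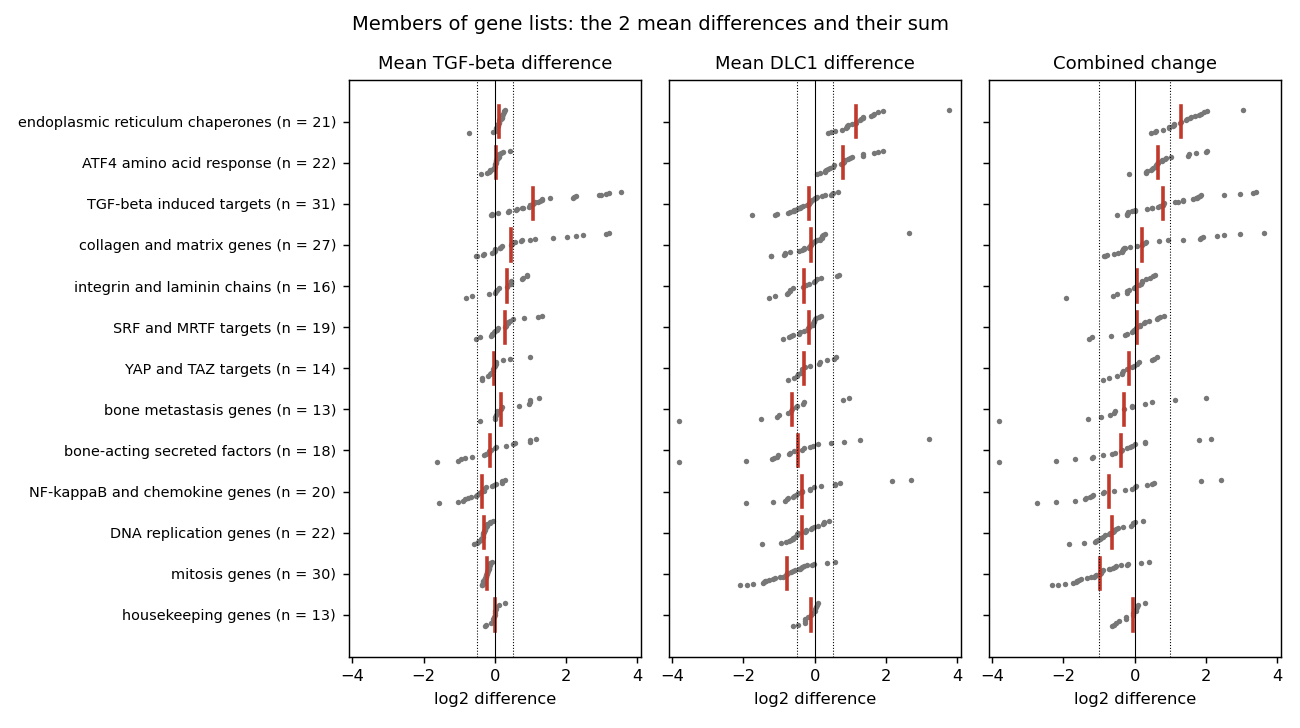
Each dot is a kept member of a gene list, with its log2 mean TGF-beta difference (left), its mean DLC1 difference (middle) and their sum, the combined change (right); red lines are list medians and dotted lines mark 0.5 or, on the right, 2-fold. Endoplasmic reticulum chaperones sit to the right for DLC1 (median 1.16) and near 0 for TGF-beta (0.12), TGF-beta induced targets sit to the right for TGF-beta (1.06), and mitosis genes sit to the left for both (-0.21 and -0.78).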

How the data were processed

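RNA from 4 SCP2 cultures was hybridised to 1 Affymetrix expression array each, with 1 array per group. The deposited values are intensities on a linear scale from 0.05 to 265.58, and RMA is named per the submitters' processing notes. How linear values follow from RMA, which gives log2 values, and how they were scaled is not given in the sources used here. The deposited intensities were converted to log2 without further normalization. Of 54675 probe sets, 41097 carried exactly 1 gene symbol, 1801 several and 11777 were unnamed here. A gene was represented by its brightest probe set and kept if its highest value reached 0.38. With 1 array a side no test, error or p-value exists, a gene was called at 2-fold, and only sizes are given. The number of arrays limits the precision.

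The text names DLC1, the extremes of the combined change (10 each way) with values under 0.38 raised to it, 10 genes of each class by the smaller of the 2 mean differences, the 5 largest departures of each sign, and up to 6 members of each of 27 gene lists, with members under 0.5 where a list did not move. Other members named for their class or role were chosen after their values were seen. A gene list and a gene are not reported here. The members and lists were chosen with earlier results of these data known. Alternatives were another summary of probe sets, filter, pseudocount, normalization, centring and size threshold. The scripts were tested on simulated data. Python 3.11.15, pandas 2.3.3, R 4.3.3 and limma 3.58.1 were used, the last for normalization alternatives only.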

Additional observations from a re-analysis of the deposited data

Results flagged for a closer look

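EREG, the epiregulin gene, was lower in the DLC1-labelled array than in the vector array without TGF-beta, at -0.91 on the log2 scale, and higher with TGF-beta, at 0.84. Its intensities ran from 0.14 to 0.79, and both values compared with TGF-beta lay under 0.38, so that the sign of the second difference is uncertain. With 1 array per group, the difference was not tested. Among the kept genes, EVI2B was the other gene whose DLC1 differences had opposite signs and were both at least 0.5 in size, at -0.53 without and 0.62 with TGF-beta, and it was named after its values were seen. EVI2B read 7.94 in the vector array, 1.89 with TGF-beta, 5.5 in DLC1-labelled cells and 2.9 with both.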

How the results depend on the processing

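No paired analysis was possible because each group holds 1 array and the labels give no replicate numbers. Counts are given in the order higher, lower, raised by both, lowered by both, raised by TGF-beta and lowered by DLC1, and the reverse, and were 257, 359, 33, 78, 151 and 63 as reported. With every probe set on its own the first 3 were 599, 542 and 62 and the last 2 were 269 and 101. With the mean of a gene's probe sets the last 5 were 217, 18, 40, 97 and 31. With a pseudocount of 0.5 they were 154, 194, 17, 27, 97 and 35. At 3-fold and a mean difference of 1 they were 75, 71, 3, 2, 33 and 6, and at 1.5-fold and 0.25 they were 904, 1199, 187, 425, 459 and 284. Centring on the housekeeping level gave 783, 140, 115, 21, 140 and 49. Single differences from the vector array gave 74 raised and 222 lowered by both. Requiring 0.5 of each of the 4 differences, chosen after seeing the data, gave 14, 24, 100 and 29 for the last 4. Calls higher made up 41.7% as reported, 84.8% with housekeeping level centring, 52.5% with every probe set on its own and 50.1% with centring on the median housekeeping difference, also chosen after seeing the data. No filter, a stricter filter, dim values raised to 0.38, quantile normalization and cyclic loess left all 6 counts within 1.5 times. The combined change of DLC1 reversed to -0.083 in its other probe set of like brightness; the cause was not tested. Intensities under 0.38 limit the sizes of dim genes.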

Other observations

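Of 13 kept epithelial markers 2 rose past 2-fold and none fell, against 1.96% and 2.73% of all kept genes. KRT7, a keratin gene raised by both treatments, read 2.32 in the vector array, 6.18 with TGF-beta, 4.1 in DLC1-labelled cells and 8.39 with both, but its other, dim probe set gave 0.05 in all. CD24, a surface glycoprotein gene, rose by 1.81, and its other 5 sets gave 0.36 to 1.70. Against the same shares, NDRG1 and ANKRD37 of 15 kept hypoxia and glycolysis genes rose and none fell, with a median of 0.05. NDRG1 read 12.06, 15.77, 32.33 and 30.57, high in both DLC1-labelled arrays. Of 18 kept interferon response genes only IFI27 passed 2-fold, at 1.40, and none of 10 cholesterol synthesis genes did, beside 4.69% of all kept genes.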
